A study of Mus musculus with 5 samples.

Results

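Imprinted genes that lie inside a larger host gene, 6 in number, were followed through 5 mouse methylation libraries. They were Mcts2 in H13, Nap1l5 in Herc3, Zrsr1 in Commd1, Nnat in Blcap, Peg13 in Trappc9, and an internal CpG island of Inpp5f. CpG islands, short stretches dense in CpG dinucleotides, and their shores, the flanking 2 kb, were taken when they came within 2 kb of the nested gene, or lay inside Inpp5f, by RefSeq coordinates of the build GRCm38, which is mm10. Of 33121 islands and shores listed in any library, 19 met this rule. Of these, 3 adjoined or formed the promoter island of a host (2 at the start of Inpp5f and 1 shore at Blcap) and were counted with the hosts. Of the other 16, 15 were listed in all 5 libraries: 7 islands and 8 shores, among 14214 islands and 16696 shores so listed. The contrast was formed by 12 regions at the promoters of the hosts, 5 of them islands.

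CpG methylation had been measured by reduced representation bisulfite sequencing, which reads cytosine methylation near the CCGG sites cut by the enzyme MspI, in cells of the C57BL6 strain. The groups were primordial germ cell-like cells induced from a parthenogenetic embryonic stem cell line (pESC-PGCLC), that line itself (pESC), primordial germ cell-like cells induced from a female embryonic stem cell line (ESC-PGCLC), primordial germ cells (PGC) isolated with SSEA1 beads from fetal gonads at stage E12.5, and the female embryonic stem cell line (female ESC). Both stem cell lines were grown on feeder cells in serum with LIF, and were kept in a 2-inhibitor medium with a lowered dose of PD0325901 before induction, which took them through an epiblast-like state for 46 h with activin A and bFGF and then through floating culture for 4 days with BMP4, LIF, SCF and EGF. Cells positive for CD61 and SSEA1 were then sorted. With 1 library per group, differences have no replicate check and no p-value is given. Read depth is unknown, because levels came without read counts. A level is a mean over all cells of a library, so the share of cells methylated and the methylation per cell cannot be told apart, and the sources used here do not say whether feeder cells were removed, which sex the fetuses had or how many were pooled.

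Genomic imprinting marks the 2 parental copies of a gene differently in the germ line, and most such marks are DNA methylation laid down in the growing oocyte. The genes described here are known for maternal methylation of their promoter islands and expression from the paternal copy, while the host gene starts at a separate promoter. Several of them are intronless copies: Mcts2 resembles the X-linked Mcts1, a translation reinitiation factor, and Zrsr1 resembles the X-linked Zrsr2, a splicing factor. Nap1l5 belongs to the nucleosome assembly proteins, Nnat encodes neuronatin, a small membrane proteolipid, Peg13 is a long noncoding RNA, and Inpp5f encodes a phosphoinositide phosphatase whose internal island is the promoter of a shorter imprinted transcript. Parthenogenetic cells carry only genomes of oocyte origin. Primordial germ cells are known to lose inherited imprints as they settle in the gonad.

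The start regions of these genes are shown for their CpG and CCGG sites. RefSeq windows (GRCm38.p6) of 300 bases, from 250 before to 50 after the start, were found for 5 of the 6 genes. The windows below are those of the nested starts and of both listed starts of Commd1, since one of these lies inside the Zrsr1 island and the other at the host promoter. They run 5′ to 3′ on the strand of the gene, with each CpG in capitals.
Mcts2, chr2:152686898-152687197, plus strand: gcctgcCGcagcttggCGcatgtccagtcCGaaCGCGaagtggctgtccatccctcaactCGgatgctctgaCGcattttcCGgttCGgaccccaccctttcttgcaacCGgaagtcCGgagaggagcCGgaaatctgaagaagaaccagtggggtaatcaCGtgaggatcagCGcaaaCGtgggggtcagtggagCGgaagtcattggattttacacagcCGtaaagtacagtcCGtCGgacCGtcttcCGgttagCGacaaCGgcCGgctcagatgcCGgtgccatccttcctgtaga
Nap1l5, chr6:58907077-58907376, minus strand: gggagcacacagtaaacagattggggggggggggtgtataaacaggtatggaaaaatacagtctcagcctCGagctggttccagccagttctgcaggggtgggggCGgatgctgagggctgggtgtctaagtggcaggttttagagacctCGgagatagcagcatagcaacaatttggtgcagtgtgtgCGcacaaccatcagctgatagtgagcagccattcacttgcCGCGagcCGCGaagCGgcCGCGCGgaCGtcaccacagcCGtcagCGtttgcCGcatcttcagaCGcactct
Zrsr1, chr11:22971755-22972054, plus strand: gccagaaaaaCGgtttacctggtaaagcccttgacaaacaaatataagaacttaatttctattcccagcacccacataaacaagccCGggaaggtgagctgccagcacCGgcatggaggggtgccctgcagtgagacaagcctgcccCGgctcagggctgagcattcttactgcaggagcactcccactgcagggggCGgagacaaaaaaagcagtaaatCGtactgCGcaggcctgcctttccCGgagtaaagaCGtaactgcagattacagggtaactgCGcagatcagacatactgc
Nnat, chr2:157559828-157560127, plus strand: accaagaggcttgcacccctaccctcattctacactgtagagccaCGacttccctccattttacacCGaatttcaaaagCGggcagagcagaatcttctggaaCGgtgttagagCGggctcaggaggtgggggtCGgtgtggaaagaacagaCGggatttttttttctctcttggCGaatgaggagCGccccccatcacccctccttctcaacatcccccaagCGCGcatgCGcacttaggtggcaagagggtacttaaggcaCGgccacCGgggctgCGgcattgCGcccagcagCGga
Commd1, inner start, chr11:22972817-22973116, minus strand: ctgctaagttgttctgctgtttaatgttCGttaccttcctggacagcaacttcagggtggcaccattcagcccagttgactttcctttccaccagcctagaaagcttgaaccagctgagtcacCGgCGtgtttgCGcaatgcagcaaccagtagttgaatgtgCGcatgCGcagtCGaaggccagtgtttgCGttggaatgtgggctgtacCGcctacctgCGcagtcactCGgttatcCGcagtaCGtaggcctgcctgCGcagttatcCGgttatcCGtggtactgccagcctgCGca
Commd1, outer start, chr11:22982235-22982534, minus strand: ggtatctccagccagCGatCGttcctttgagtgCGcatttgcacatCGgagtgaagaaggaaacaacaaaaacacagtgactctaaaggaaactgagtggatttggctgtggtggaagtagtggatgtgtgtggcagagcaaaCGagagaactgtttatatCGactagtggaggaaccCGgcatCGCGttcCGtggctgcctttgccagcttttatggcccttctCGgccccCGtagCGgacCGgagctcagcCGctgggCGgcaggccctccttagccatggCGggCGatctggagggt

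The Mcts2 window lay wholly in its island and held 25 CpGs and 7 CCGG sites; only 2.38% of 32817 RefSeq windows held as many CCGG sites. The Nap1l5 window held 17 CpGs and 0 CCGG sites, with 71 bases inside the island, and the Nnat window held 17 CpGs and 1 CCGG site, with 78 bases inside. The Zrsr1 window held 10 CpGs and 4 CCGG sites, with 81 bases inside. Most of these 3 windows therefore lay outside the island whose level was measured. The median over all windows was 7 CpGs. The hexamer TGCCGC, which the imprint-keeping zinc finger protein ZFP57 binds when methylated, occurred 2 times in the Nap1l5 window, 1 time in the Mcts2 window and 1 time on the other strand in the Nnat window. It was not in the Zrsr1 window; 11.6% of all windows held it on either strand. Among the hosts, the outer Commd1 window held it 1 time on the other strand, and the inner Commd1 window, the windows of H13, Blcap and Herc3 and that at the start of Inpp5f did not. A match describes these letters only.

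**Figure D1:**
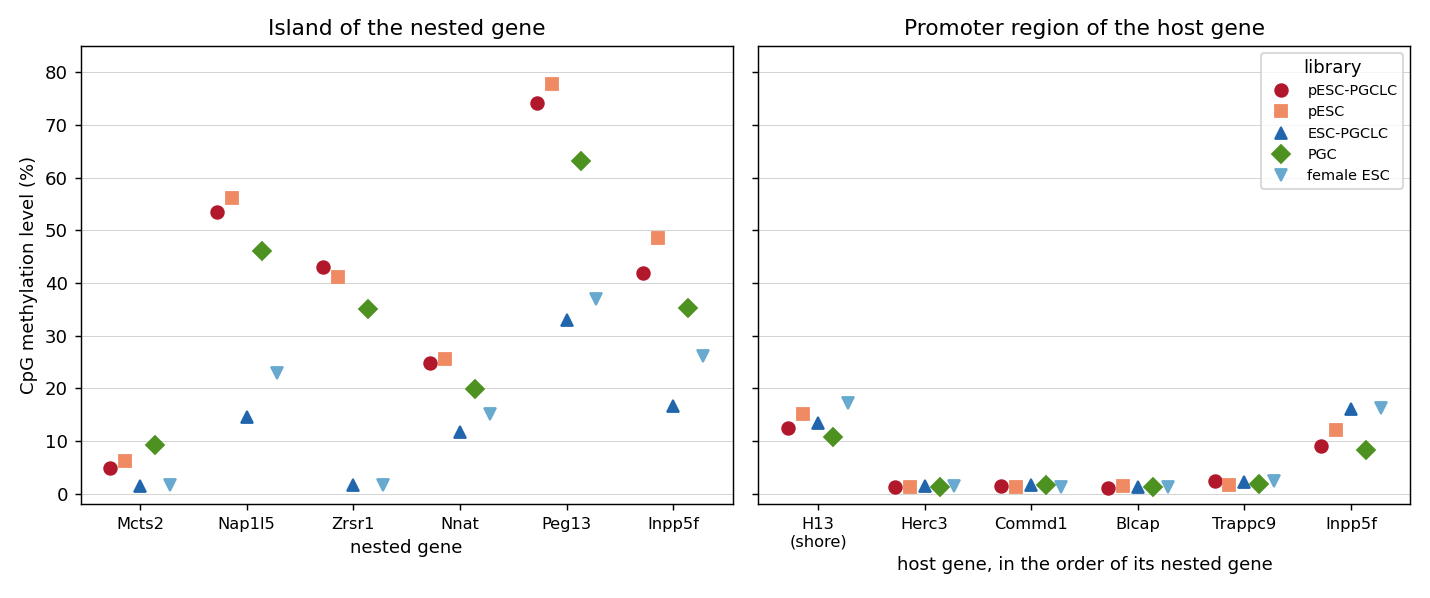
CpG methylation level (%) of the longest island of each nested gene (left) and of the promoter region of its host (right; an island except for H13, where a shore is shown), with 1 point per library and no error, since each group has 1 library. Nested islands range up to 77.8% (Peg13, pESC), and 4 of the 6 host promoters stay under 3% in every library.

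Peg13, the noncoding RNA within Trappc9, had the most methylated island of the set (chromosome 15, 72809537 to 72810123, 586 bp). Its level was 74.2% in pESC-PGCLC, 77.8% in pESC, 33.0% in ESC-PGCLC, 63.2% in PGC and 36.9% in female ESC. The shore that follows it (72810123 to 72812124) had 67.5% in pESC-PGCLC, 67.7% in pESC, 25.3% in ESC-PGCLC, 55.1% in PGC and 38.3% in female ESC. Both parthenogenetic libraries were highest, PGC came next, and both libraries of the biparental line were lowest, at island and shore alike.

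Nap1l5 had its island over the gene start (chromosome 6, 58906723 to 58907147, 424 bp), at 53.4% in pESC-PGCLC, 56.1% in pESC, 14.5% in ESC-PGCLC, 46.0% in PGC and 22.8% in female ESC. Its shore covers most of the gene body (58904722 to 58906722) and had 43.9% in pESC-PGCLC, 51.5% in pESC, 11.5% in ESC-PGCLC, 40.04% in PGC and 24.2% in female ESC. ESC-PGCLC was the lowest library at both regions.

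At Inpp5f, the internal island (chromosome 7, 128687969 to 128688582, 613 bp) was at 41.8% in pESC-PGCLC, 48.6% in pESC, 16.7% in ESC-PGCLC, 35.2% in PGC and 26.1% in female ESC. The order of the libraries was that of Peg13 and Nap1l5, over a narrower range of 31.9 points, against 44.8 points at the Peg13 island and 41.6 points at the Nap1l5 island.

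Zrsr1 was nearly free of methylation in the biparental line. Its longer island (chromosome 11, 22971974 to 22972993, 1019 bp) had 43.0% in pESC-PGCLC, 41.0% in pESC, 1.61% in ESC-PGCLC, 35.1% in PGC and 1.60% in female ESC. A second island of 215 bp in the gene (22973116 to 22973331) had 21.5% in pESC-PGCLC, 31.1% in pESC, 1.76% in ESC-PGCLC, 22.6% in PGC and 0.871% in female ESC, the lowest of all levels in the set. The 4 shores of these islands lay between 34.4% and 48.1% in pESC-PGCLC, 41.3% and 47.5% in pESC, 1.74% and 4.85% in ESC-PGCLC, 27.6% and 41.3% in PGC, and 1.62% and 3.76% in female ESC. These regions overlap each other, 1 shore spanning the whole longer island, so they are not separate measurements.

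Nnat, inside Blcap, had an island over its start (chromosome 2, 157560050 to 157560581, 531 bp) with 24.8% in pESC-PGCLC, 25.5% in pESC, 11.7% in ESC-PGCLC, 19.9% in PGC and 15.1% in female ESC. The shore over the gene body (157560581 to 157562582) had 31.4% in pESC-PGCLC, 26.0% in pESC, 12.7% in ESC-PGCLC, 28.5% in PGC and 16.1% in female ESC. The shore before the start (157558049 to 157560049) was the exception of the set, with 50.9% in pESC-PGCLC, 52.5% in pESC, 42.2% in ESC-PGCLC, 45.6% in PGC and 55.6% in female ESC. There female ESC was the highest library, and the range over the 5 libraries was 13.5 points.

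Mcts2 was the least methylated member. Its island covers the start of the gene (chromosome 2, 152686809 to 152687230, 421 bp) and had 4.90% in pESC-PGCLC, 6.14% in pESC, 1.39% in ESC-PGCLC, 9.22% in PGC and 1.53% in female ESC. It was the one region of the 15 in which PGC was the highest library. For comparison, the median over all 14214 islands was 1.65% in pESC-PGCLC, 1.49% in pESC, 1.65% in ESC-PGCLC, 1.48% in PGC and 1.54% in female ESC.

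**Figure D2:**
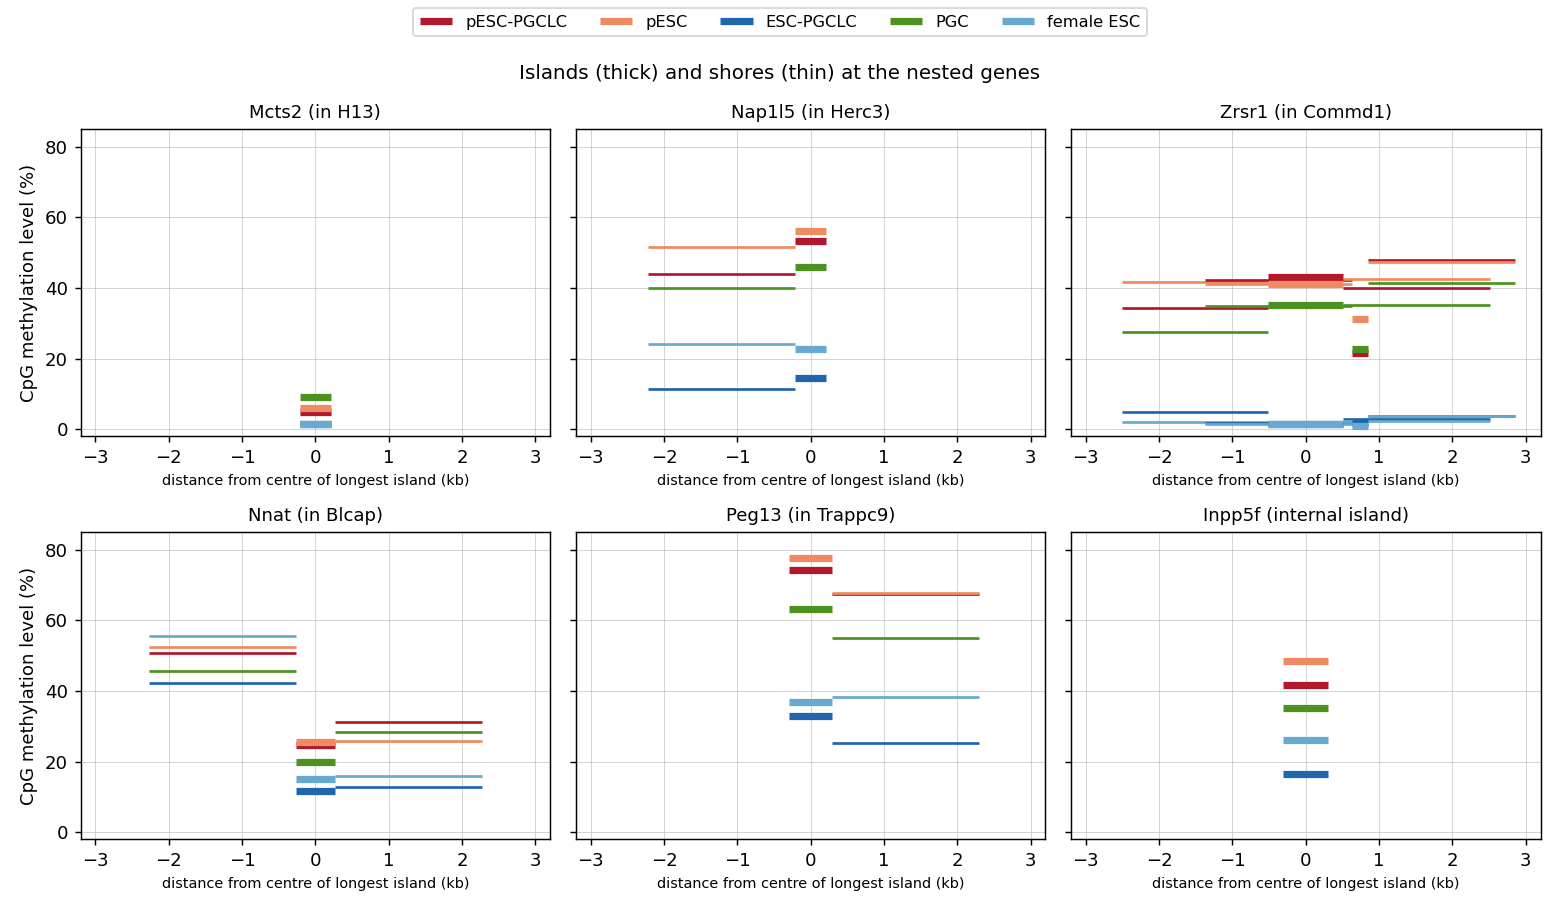
CpG methylation level (%) of each island (thick) and shore (thin) against the distance in kb from the centre of the longest island of the gene, in the direction of rising coordinates, with 1 colour per library. The libraries keep the same order at island and shore of Nap1l5, the short Zrsr1 island lies below its shores in pESC-PGCLC, pESC and PGC, and the shore before Nnat lies between 42.2% and 55.6% in all 5 libraries.

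The promoters of the hosts had no such pattern. Those of Herc3, a ubiquitin ligase, Commd1, a regulator of copper transport, Blcap and Trappc9, a vesicle trafficking subunit, had islands between 1.02% and 2.45% in every library. The Commd1 island at the outer start (chromosome 11, 22981956 to 22982373) was at 1.50% in pESC-PGCLC, 1.27% in pESC, 1.68% in ESC-PGCLC, 1.63% in PGC and 1.24% in female ESC. It lies 9681 bp from the longer Zrsr1 island, centre to centre, and in pESC the Zrsr1 island was 39.8 points above it. The Herc3 island (chromosome 6, 58831307 to 58832000) had 1.32% in pESC-PGCLC, 1.22% in pESC, 1.46% in ESC-PGCLC, 1.23% in PGC and 1.37% in female ESC. The Blcap island (chromosome 2, 157565924 to 157566396) is 5845 bp from that of Nnat and had 1.02% in pESC-PGCLC, 1.52% in pESC, 1.24% in ESC-PGCLC, 1.29% in PGC and 1.22% in female ESC. RefSeq windows gave no strand for Trappc9, and of its ends only the higher coordinate had an island (chromosome 15, 73060919 to 73061136), with levels between 1.57% in pESC and 2.45% in pESC-PGCLC.

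Partly methylated regions were the start of Inpp5f and a shore by the start of H13, the signal peptide peptidase gene. The island at the start of Inpp5f (chromosome 7, 128611382 to 128611840) had 8.94% in pESC-PGCLC, 12.0% in pESC, 16.1% in ESC-PGCLC, 8.33% in PGC and 16.1% in female ESC, and its shore had 18.0%, 14.0%, 26.6%, 12.7% and 23.0% in the same libraries. Both libraries of the biparental line were highest here, the opposite of the internal island. At H13 no island was listed at the start, only a shore (chromosome 2, 152669832 to 152671833), with 12.52% in pESC-PGCLC, 15.2% in pESC, 13.4% in ESC-PGCLC, 10.7% in PGC and 17.2% in female ESC. It was above the Mcts2 island in every library, but shores and islands are unlike classes. Over all shores the mean ran from 11.3% in PGC to 14.3% in female ESC, and the median from 4.23% in pESC to 4.54% in pESC-PGCLC. A second island within Trappc9 (chromosome 15, 73058048 to 73058500), neither a nested gene region nor the promoter, had 56.6% in pESC-PGCLC, 59.3% in pESC, 60.2% in ESC-PGCLC, 56.8% in PGC and 66.2% in female ESC, a narrow band in which female ESC was highest.

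The first comparison set the parthenogenetic line against the biparental one. Of the 15 regions, pESC was above female ESC in 14, in 10 of them by at least 25 percentage points, the difference used to call a region; of all islands and shores, 0.149% were called higher. The regions called were all 6 of Zrsr1 and both of Nap1l5 and of Peg13. Median levels were 42.5% for pESC and 15.1% for female ESC, and the median difference was 30.2 points, against -0.16 points over all 30910 islands and shores. Without the 6 overlapping Zrsr1 regions, 4 of 9 were called. Of the 785 islands with a mean level of at least 10%, members included, 13 were called higher, a larger share than over all islands and shores. Their median difference was -4.75 points, of the opposite sign to that of the members.

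By gene, the difference at the longest island was 40.8 points at Peg13, 39.4 points at Zrsr1, 33.3 points at Nap1l5, 22.5 points at Inpp5f, 10.3 points at Nnat and 4.62 points at Mcts2. Ordered from the highest difference over all 14214 islands, these had ranks 4, 5, 8, 15, 26 and 72. The shore before Nnat, at -3.16 points, was the one member lower in pESC. Of the 12 host promoter regions 0 were called and 5 were higher in pESC, with differences between -9.09 points (the shore at the start of Inpp5f) and 0.68 points.

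The comparison of the germ cell-like cells asked whether that difference was present after induction. All 15 regions were higher in pESC-PGCLC than in ESC-PGCLC, and 10 were called, against 0.100% of all islands and shores. Of the 785 islands with a mean level of at least 10%, members included, 12 were called higher. Median levels were 42.4% in pESC-PGCLC and 11.5% in ESC-PGCLC, with a median difference of 32.4 points, against -0.02 points over all islands and shores. The internal island of Inpp5f was called here, at 25.1 points, and the short Zrsr1 island was not, at 19.8 points. At the longest islands the difference was 41.4 points at Zrsr1, 41.2 points at Peg13 and 39.0 points at Nap1l5. It was 13.1 points at Nnat and 3.52 points at Mcts2. Without the Zrsr1 regions, 5 of 9 were called. Of the host promoter regions 0 were called and 2 were higher in pESC-PGCLC, the lowest difference being -8.58 points at the shore of the Inpp5f start.

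**Figure D3:**
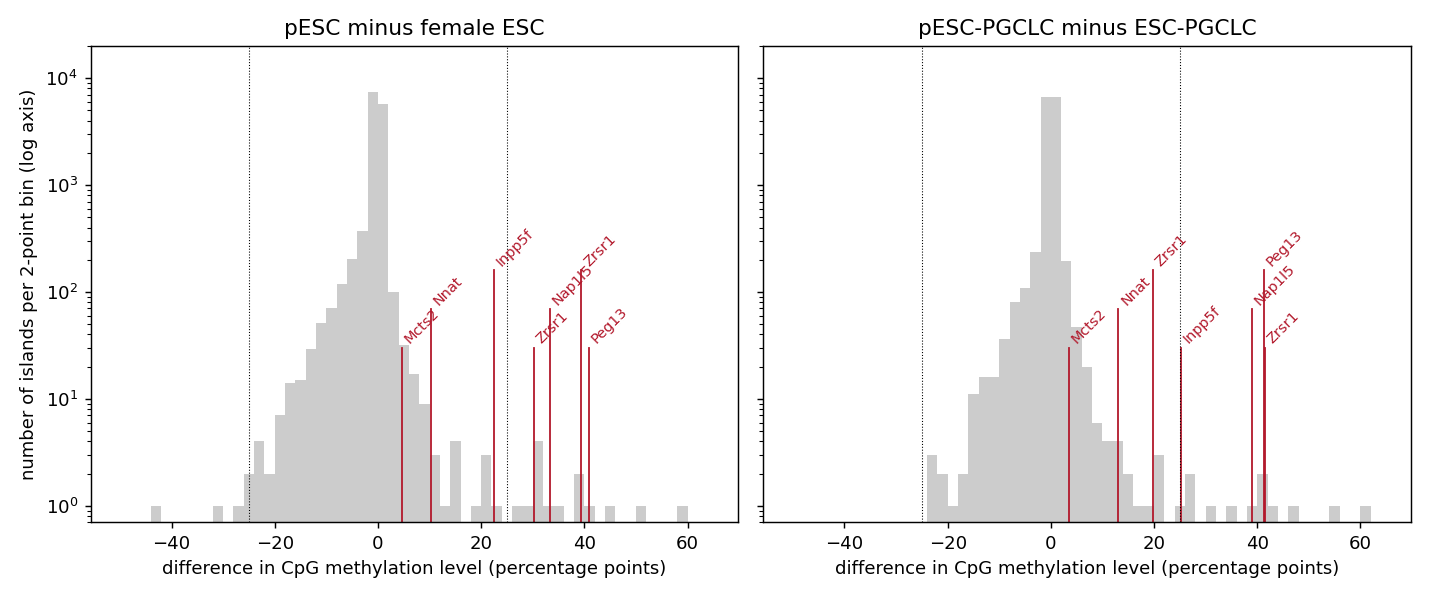
Number of islands (log axis) in each 2-point bin of the difference in CpG methylation level, in percentage points, for pESC minus female ESC (left) and pESC-PGCLC minus ESC-PGCLC (right), over 14214 islands, with red lines at the 7 islands of the nested genes and dotted lines at 25 points either way. Peg13, Nap1l5 and the longer Zrsr1 island lie in the far right tail of both panels, and Mcts2 lies at 4.62 and 3.52 points, far inside the dotted lines.

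Of the 46 islands and shores called higher in pESC, 50.0% were also called higher in pESC-PGCLC. Of the 31 called in the germ cell-like cells, 74.2% were also called in the stem cells. These comparisons have no library in common but set the same 2 cell lines against each other, so they are not independent. Parthenogenetic origin and cell line cannot be told apart in either. Of the 23 shared regions, 9 belonged to the nested genes (5 at Zrsr1, 2 at Nap1l5 and 2 at Peg13) and 13 to other maternally methylated imprinted genes. Those 13 overlap in part as well: 5 lie at Gnas, and at Gnas and at Peg3 an island and a shore over it have identical values. The remaining one was a shore at Crocc, a centrosomal gene, named after its values were seen. It was listed at 45.5% in pESC-PGCLC, 43.5% in pESC, 6.25% in ESC-PGCLC, 50.0% in PGC and 0% in female ESC. Few reads can give levels such as 6.25%, 50.0% and 0%, and the depth at this shore is unknown.

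Against fetal germ cells, the biparental germ cell-like cells were lower throughout the set. All 15 regions were lower in ESC-PGCLC than in PGC, and 8 were called, against 0.0938% of all islands and shores. Of the 785 islands with a mean level of at least 10%, members included, 12 were called lower. Median levels were 11.5% in ESC-PGCLC and 35.2% in PGC, with a median difference of -28.5 points, against 0.23 points over all islands and shores. Without the Zrsr1 regions the median difference was -18.5 points and 4 of 9 were called. The difference at the longest island was -33.5 points at Zrsr1, -31.6 points at Nap1l5, -30.2 points at Peg13, -18.5 points at Inpp5f, -8.23 points at Nnat and -7.83 points at Mcts2. Of the 12 host promoter regions 0 were called and 9 were higher in ESC-PGCLC, by up to 13.9 points at the shore of the Inpp5f start, which stood at 26.6% in ESC-PGCLC and 12.7% in PGC.

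The parthenogenetic germ cell-like cells were set against fetal germ cells in the same way. Of the 15 regions, 13 were higher in pESC-PGCLC than in PGC and 0 were called, where 0.0453% of all islands and shores were called higher. The median difference was 6.59 points, with a highest value of 12.4 points at the Peg13 shore. Mcts2 (-4.32 points) and the short Zrsr1 island (-1.08 points) were the members lower in pESC-PGCLC. Since all 15 were lower in ESC-PGCLC than in PGC, the PGC level had to lie between those of the germ cell-like cells in 13. The exceptions were those same islands, so this adds no result to the 2 comparisons. As the 2 comparisons with PGC share that library, their values are given side by side only.

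**Figure D4:**
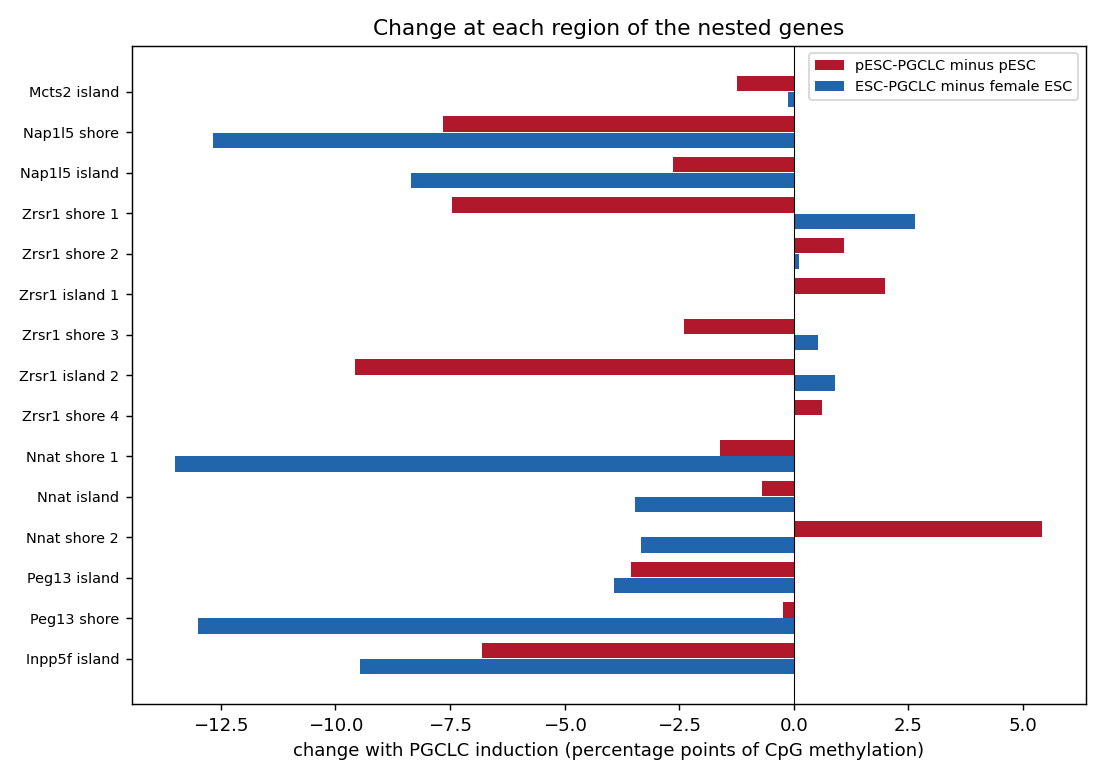
Difference in CpG methylation level (percentage points) between germ cell-like cells and the stem cells they came from, at the 15 regions of the nested genes in genome order within each gene, for pESC-PGCLC minus pESC (red) and ESC-PGCLC minus female ESC (blue), 1 library each. Both bars point left at 8 regions, and the blue bars reach -13.5 points at the shore before Nnat.

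Induction was followed by comparing each kind of germ cell-like cell with its own stem cell line. In the biparental line 9 of 15 regions were lower in ESC-PGCLC than in female ESC and 0 were called, where 0.214% of all islands and shores were called lower. The median difference was -3.34 points over the 15 regions and -8.34 points over the 9 outside Zrsr1; with the 3 regions at host promoters that met the distance rule counted in, it was -0.11 points. The 6 regions that were not lower were those of Zrsr1, between 0.01 and 2.65 points higher from levels under 4% in female ESC. Outside Zrsr1, the differences ran from -0.14 points at Mcts2 to -13.5 points at the shore before Nnat, with -13.0 points at the Peg13 shore, -12.7 points at the Nap1l5 shore and -9.45 points at the Inpp5f island. In the parthenogenetic line 11 of 15 were lower in pESC-PGCLC than in pESC and 0 were called, where 0.0582% of all islands and shores were called lower. The median difference was -1.60 points, or -2.65 points over islands only, within a range of -9.58 points at the short Zrsr1 island to 5.42 points at the Nnat gene body shore. Islands with a mean level of at least 10% had median differences of -2.05 points in the parthenogenetic line and -4.36 points in the biparental line. With the median difference of such islands and shores taken out, the members' median became 0.81 points in the parthenogenetic line and 2.07 points in the biparental line, so the direction of the median difference depended on that step.

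Members resembled each other in how their levels varied over the 5 libraries, Mcts2 least, though the exact order of the libraries differed between genes. The Pearson correlation of an island with the mean of the islands of the other genes was 0.996 at Peg13 and Nap1l5, 0.977 at the longer Zrsr1 island, 0.966 at the short one, 0.974 at Nnat, 0.956 at Inpp5f and 0.768 at Mcts2. These are descriptions over 5 points, and all regions of a point share 1 library. Among the host promoter regions the correlation with the mean nested profile ran from -0.893 to 0.365. Many of these regions lay near the floor, where a correlation rests on a fraction of a point. The Herc3 island, between 1.22% in pESC and 1.46% in ESC-PGCLC, had -0.879. Such near-floor values are not read as an opposite pattern. The lowest value, -0.893, was that of the shore at the start of Inpp5f. That shore was not near the floor, with 12.7% in PGC and 26.6% in ESC-PGCLC. The island there had -0.835, between 8.33% in PGC and 16.1% in female ESC. Of 448 other islands with a range of at least 10 points, the 8 most like the mean profile were all at imprinted genes: a pair within Gnas (0.995 and 0.955), and 1 each at Airn within Igf2r (0.990), Peg10 (0.990), Impact (0.988), Plagl1 with Hymai (0.976), Grb10 (0.975) and Kcnq1ot1 within Kcnq1 (0.973). Airn and Kcnq1ot1 are antisense RNA genes that, like the members, start inside another gene.

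Other imprinted genes were counted in the same comparisons. Of 14 listed with maternal methylation, 13 had regions, 28 in all. These are any islands and shores in or within 2 kb of the genes, not only maternally methylated ones. Gnas alone has 12, Gnasas1 shares 8 with it, and Sgce and Usp29 share theirs with Peg10 and Peg3. For pESC against female ESC 14 were called, all higher, with a median difference of 25.5 points, against 0.149% of all islands and shores. In pESC-PGCLC 13 were called higher than in ESC-PGCLC, with a median of 20.5 points, against 0.100%. Compared with PGC, 12 were called lower in ESC-PGCLC, against 0.0938%, and 0 in either direction in pESC-PGCLC. Of 6 genes listed with paternal methylation, 3 had regions (Dlk1, Rasgrf1 and Zdbf2), 9 in all, and H19, Meg3 and Gpr1 had none. Median levels of the 9 were 3.13% in pESC-PGCLC, 3.68% in pESC, 5.51% in ESC-PGCLC, 2.53% in PGC and 2.23% in female ESC. From such levels a region can hardly be called lower, so the 0 calls in the 6 comparisons say nothing of paternal imprints. Of the X-linked relatives, Zrsr2 had an island at 2.34% in pESC-PGCLC, 1.25% in pESC, 1.04% in ESC-PGCLC, 2.46% in PGC and 1.50% in female ESC, and Mcts1 had no listed region. The Zrsr1 islands were at such low levels in ESC-PGCLC and female ESC only.

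Cytosines outside CpG, read as the level that unconverted bases or non-CpG methylation could give, were low at all 15 regions: between 0.400% and 1.49% in the CHG context and 0.383% and 1.90% in the CHH context over the 5 libraries. Within ESC-PGCLC they reached 1.11% in CHG and 1.17% in CHH, and the islands of Mcts2 and Zrsr1, at 1.39% to 1.76% in CpG, lay above both. Within female ESC they reached 1.05% in CHG and 0.865% in CHH. There the Mcts2 island, at 1.53%, and the longer Zrsr1 island, at 1.60%, lay above both, and the short Zrsr1 island, at 0.871%, lay below the highest CHG level.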

How the data were processed

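The deposited files give, per the file headers, 1 methylation ratio for each region, class and cytosine context in 1 library per group; the authors' values are a fraction from 0 to 1, printed here as percent (100 times the fraction). Per the submitters' processing notes, Bismark 0.16.3 and Bowtie2 were used with mm10; the sources used here do not give coverage filters, read counts or how regions were drawn. With levels only, the read-count tests planned for count data could not be run. Coordinates are as deposited and their counting base is not stated.

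Regions were tied to genes by RefSeq coordinates of GRCm38.p6. A host promoter island lay within 1000 bp of the host start; regions adjoining it went with it, and an island overlapping the nested gene stayed with that gene. Differences were called at 25 points, with no test, over regions listed in all 5 libraries. Ensembl identifiers of the promoter, exon and intron entries could not be paired with symbols and were not used. Members, gene lists and rules were chosen with earlier results of these data known. Named genes were all members, their hosts, the X-linked relatives and the 8 islands most like the members' mean profile; Crocc was named outside this rule, after its values were seen, and other genes belong to the imprinted gene lists. The call was run on simulated data with an assumed read depth, which cannot show its error rate at the unknown real depth. Python 3.11.15, pandas 2.3.3 and matplotlib 3.10.9 were used.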

Additional observations from a re-analysis of the deposited data

Results flagged for a closer look

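At 4 regions the change with induction had opposite signs in the 2 lines, each with 1 library per group, so the difference was not tested. At the Zrsr1 shore from 22969973, pESC-PGCLC minus pESC was -7.46 points and ESC-PGCLC minus female ESC was 2.65 points, a difference of -10.1 points between the lines. At the short Zrsr1 island these were -9.58 and 0.89 points, a difference of -10.5 points. At the Zrsr1 shore from 22972993 they were -2.39 and 0.52 points, a difference of -2.91 points. At the Nnat gene body shore they were 5.42 and -3.34 points, a difference of 8.75 points. Of these Zrsr1 regions, the shore from 22972993 overlaps the short island, and the shore from 22969973 lies on the other side of the longer island, where pESC-PGCLC minus pESC was 1.99 points and ESC-PGCLC minus female ESC was 0.01 points. Levels of the 3 regions in the biparental line were under 5% in both libraries. These regions were flagged by sign, not by size. Larger differences between the lines, with a fall in both, were at the Peg13 shore (12.8 points) and the shore before Nnat (11.9 points).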

How the results depend on the processing

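No paired analysis was possible because each group has 1 library. Of the alternative values, 100 kept their direction and stayed within 1.5 times the reported one, 18 moved further and 2 reversed. With 25 points replaced by 40, regions called numbered 3 for pESC against female ESC, 5 for pESC-PGCLC against ESC-PGCLC and 0 for ESC-PGCLC against PGC. At 10 points, 2 were called for pESC-PGCLC against PGC and 3 for ESC-PGCLC against female ESC. With islands only there were 4, 4 and 3 calls in the first 3 comparisons, with 1 island per gene 3, 4 and 3, and without Zrsr1 4, 5 and 4, in each case among fewer regions. Without Zrsr1 the median difference was -18.5 points for ESC-PGCLC against PGC and -8.34 points for ESC-PGCLC against female ESC, and with the 3 regions at host promoters that met the distance rule counted in, the second of these was -0.11 points. With islands only the median for pESC-PGCLC against pESC was -2.65 points. Both induction medians turned positive when the class shift was subtracted, to 2.07 points for ESC-PGCLC against female ESC and 0.81 points for pESC-PGCLC against pESC. A window of 1 kb, regions listed in the 2 libraries compared, and leaving out levels of exactly 0 or 100% (0 of 15 regions) kept the same 15 regions. Their values therefore had to equal the reported ones, yet they count among the 100, which overstates how stable the results are. So do counts of 0 in the comparisons with 0 calls at 25 points. There a subset of the regions or a higher threshold could give only 0 again. Subtraction of the CHH level changed no call count. Leaving out Zrsr1, 1 island per gene and counting in those 3 regions were chosen after the data were seen. Depth is unknown and limits how firmly differences of a few points can be read.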

Other observations

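The shore over the Mcts2 gene body was listed in ESC-PGCLC alone, at 9.09%. H13 has an island near its far end (chromosome 2, 152707611 to 152707865), with levels between 1.27% in pESC-PGCLC and 1.96% in PGC. The shore before that island had between 8.23% in female ESC and 10.9% in pESC-PGCLC. The shore before the second island within Trappc9 (chromosome 15, 73056047 to 73058047) had 49.6% in pESC-PGCLC, 56.6% in pESC, 57.2% in ESC-PGCLC, 51.0% in PGC and 67.4% in female ESC.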
